A study of Mus musculus with 16 samples.

Results

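The RNA of 8 genes that restrain NF-kB was followed in 16 mouse libraries made from YUMM1.7 tumours, which grow from a mouse melanoma line. The genes were the classical IkB genes Nfkbia, Nfkbib and Nfkbie, the atypical IkB genes Nfkbiz, Nfkbid and Bcl3, and the feedback genes Tnfaip3, which encodes A20, and Tnip1, which encodes the A20 partner ABIN-1. They were chosen by name as a functional family, and all 8 were found by Ensembl identifier among 32697 genes in the deposited count table. All 8 also passed the filter on low counts that left 16040 genes for testing.

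The study described the sequenced cells as type 1 conventional dendritic cells (cDC1s), sorted from the tumours, and each library is bulk RNA of many cells. In the Irf1 set, 4 libraries carried the genotype IRF1deltaXCR1, written here as Irf1 deleted, and 4 carried IRF1FF, written as Irf1 floxed. In the Ikbkb set, 4 libraries carried IKKbdeltaXCR1, or Ikbkb deleted, and 4 carried IKKbFF, or Ikbkb floxed. Ikbkb encodes IKK-beta and Irf1 encodes the transcription factor IRF1, and the genotype names tie both deletions to XCR1, a chemokine receptor of cDC1s. The tumours of all groups were engrafted, not treated otherwise, and grown to between 200 and 350 mm3. The growth notes name female mice of the Ikbkb genotypes alone, so the group of each Irf1 library rests on its genotype label. The labels name neither the Cre line, the mouse ages nor the floxed exons, and they do not say whether the 4 libraries of a group came from separate animals. The p-values therefore measure the spread between these libraries, which may be technical.

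NF-kB dimers are held inactive in the cytoplasm by the classical IkB proteins. The IKK complex, through its catalytic subunit IKK-beta, phosphorylates IkB, which is then degraded, and the freed NF-kB enters the nucleus. Among the genes it induces are Nfkbia and Tnfaip3, so that the pathway makes its own inhibitors and returns to rest. The atypical IkB proteins act mainly in the nucleus, where they bind NF-kB subunits and raise or lower transcription of selected genes. In mouse dendritic cells, A20 is known to restrain activation in the absence of infection.

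The start regions of 4 members are shown to set the motifs of Nfkbia and Tnfaip3, which were called between the sets of libraries compared below, beside those of Nfkbib and Tnip1, which were not. Capitals mark matches to the kB consensus, the DNA motif bound by NF-kB. The sequences are from RefSeq (GRCm38.p6), run from 250 bases before to 50 after the transcription start, and are written on the gene's own strand. The regions are chr12:55492598-55492897 (minus strand) for Nfkbia, chr7:28766595-28766894 (minus) for Nfkbib, chr10:19015361-19015660 (minus) for Tnfaip3 and chr11:54962891-54963190 (minus) for Tnip1.
Nfkbia: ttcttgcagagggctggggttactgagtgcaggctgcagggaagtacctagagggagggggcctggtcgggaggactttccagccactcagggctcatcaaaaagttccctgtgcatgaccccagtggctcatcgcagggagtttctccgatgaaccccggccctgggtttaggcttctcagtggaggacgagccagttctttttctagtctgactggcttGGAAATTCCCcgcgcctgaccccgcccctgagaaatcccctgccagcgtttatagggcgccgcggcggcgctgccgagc
Nfkbib: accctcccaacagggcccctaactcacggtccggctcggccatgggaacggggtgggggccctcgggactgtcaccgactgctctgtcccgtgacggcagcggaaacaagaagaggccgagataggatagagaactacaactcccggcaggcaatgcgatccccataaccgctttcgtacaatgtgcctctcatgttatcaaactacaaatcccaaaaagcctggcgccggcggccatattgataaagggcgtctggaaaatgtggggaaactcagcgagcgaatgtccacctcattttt
Tnfaip3: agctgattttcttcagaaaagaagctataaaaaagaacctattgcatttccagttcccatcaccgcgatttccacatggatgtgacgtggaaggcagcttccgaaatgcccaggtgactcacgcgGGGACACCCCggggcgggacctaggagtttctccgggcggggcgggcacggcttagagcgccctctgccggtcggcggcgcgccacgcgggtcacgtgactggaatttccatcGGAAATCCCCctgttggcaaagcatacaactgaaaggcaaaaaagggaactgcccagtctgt
Tnip1: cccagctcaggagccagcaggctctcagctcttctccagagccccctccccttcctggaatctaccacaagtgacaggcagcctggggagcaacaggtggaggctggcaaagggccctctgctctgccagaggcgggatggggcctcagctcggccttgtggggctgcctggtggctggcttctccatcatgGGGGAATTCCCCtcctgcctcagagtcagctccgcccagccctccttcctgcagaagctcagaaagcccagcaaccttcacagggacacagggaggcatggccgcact

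Promoters were found for 7 of the 8 members, the exception being Nfkbiz, and there were 10 in all, since Nfkbid has 3 starts and Tnfaip3 has 2. At least 1 match to the kB consensus, on either strand, was present in 6 of the 10 promoters, which belong to 6 of the 7 members, against 8.46% of 32841 promoters of the same length. In Nfkbia the match GGAAATTCCC began 29 bases before the start. The first Tnfaip3 promoter held GGGACACCCC at 125 and GGAAATCCCC at 12 bases before the start. In Tnip1 3 overlapping matches began at 58, 57 and 56 bases before the start and together form a single palindromic run. Nfkbie, the second Nfkbid promoter and Bcl3 also held matches, and Nfkbib held none in this window. The interferon regulatory factor element, searched on both strands as a repeat of GAAA with any 2 bases between, was in 0 of the 10 promoters and in 3.44% of all promoters. A match is a description of the letters and does not show that a factor binds there.

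Total counts lay between 16478671 and 27433818 per library, with 18468 to 22900 genes detected, and counts of a member in a library lay between 66 (Nfkbid) and 25440 (Nfkbia). Levels are counts relative to library size (CPM), scaled by the trimmed mean of M values (TMM), and values with ± are means and SD over the 4 libraries of a group. As a check of the labelled cell type, the defining cDC1 gene Xcr1 was between 12.1 and 318.2 CPM and Clec9a between 0.603 and 67.6 CPM over the 16 libraries. The collagen gene Col3a1 of fibroblasts, at 1465 to 13336 CPM, and the macrophage gene C1qa, at 49.7 to 680.8 CPM, were also present in every library. Ikbkb averaged 37.4 ± 7.25 CPM in Ikbkb-deleted libraries and 64.8 ± 37.4 CPM in Ikbkb-floxed libraries (log2 fold change -0.79 with SE 0.33, adjusted p = 0.988 in edgeR). Its unadjusted edgeR p was 0.0279. An exact permutation test over 70 labellings gave p = 0.0857, where 0.0286 is the smallest possible. Without Ikbkb-floxed replicate 3, which held 120.8 CPM against 44.5 to 48.6 CPM in the other 3 floxed libraries, the log2 fold change was -0.30. Irf1 averaged 166 ± 90.5 CPM in libraries labelled Irf1 deleted and 199 ± 61.9 CPM in Irf1-floxed libraries (-0.26, SE 0.40, edgeR adjusted p = 1). The same permutation test gave p = 0.457 for Irf1. At 299.2 CPM of Irf1, replicate 1 of the libraries labelled Irf1 deleted was above all 4 Irf1-floxed libraries. The log2 fold change of Irf1 was -0.70 without that library, -0.07 without Irf1-deleted replicate 4 and -0.08 without Irf1-floxed replicate 4, and it moved by less under the other omissions of 1 library. Gene-level counts can include reads outside the floxed exons, and reads from other cells in a library. These values therefore do not settle whether the exons were lost in cDC1s, and the part of other cells was not tested. Ikbkb-floxed replicate 3 stood apart from its group. It had the highest level of 7 of the 8 members among all 16 libraries.

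Among the classical IkB genes, Nfkbia was the most abundant member and separated both sets completely. Nfkbia (ENSMUSG00000021025, mm10 chromosome 12, 55489410 to 55492647, minus strand) encodes IkB-alpha, the fast feedback inhibitor that NF-kB induces. It measured 220.6, 265, 315 and 284.9 CPM in Irf1-deleted libraries, against 209.8, 238.8, 263 and 340 CPM in Irf1-floxed libraries. In the Ikbkb set it measured 910.1, 824, 740.6 and 630.2 CPM in deleted libraries, against 774.6, 813.7, 1337 and 565.6 CPM in floxed libraries. The highest library of the Irf1 set therefore lay below the lowest of the Ikbkb set, while deleted and floxed libraries overlapped within each set.

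Nfkbib (ENSMUSG00000030595, chromosome 7, 28758251 to 28767512, minus strand) encodes IkB-beta, a cytoplasmic inhibitor that is degraded more slowly than IkB-alpha. Its exons overlap those of Sirt2 on the other strand, which averaged 72.2 CPM, and of Ccer2, and the library kit does not mark strand, so part of its counts may belong to its neighbours. Its levels were 46.6, 34.0, 39.5 and 31.9 CPM in Irf1-deleted libraries, against 31.5, 41.4, 33.3 and 46.0 CPM in Irf1-floxed libraries. In Ikbkb-deleted libraries they were 67.4, 59.3, 42.8 and 46.0 CPM, against 46.8, 41.3, 161.9 and 34.1 CPM in Ikbkb-floxed libraries. All libraries lay within a narrow band apart from Ikbkb-floxed replicate 3, which was far above the other 15.

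Nfkbie (ENSMUSG00000023947, chromosome 17, 45555703 to 45563169, plus strand) encodes IkB-epsilon, an inducible inhibitor that acts later than IkB-alpha. It had 69.2, 37.9, 50.4 and 34.4 CPM in Irf1-deleted libraries, against 37.2, 67.6, 37.4 and 54.4 CPM in Irf1-floxed libraries. The Ikbkb-deleted libraries had 97.0, 77.7, 38.9 and 70.1 CPM, against 71.8, 58.3, 198.5 and 47.8 CPM in the Ikbkb-floxed libraries. All 4 groups overlapped, and the highest library was again Ikbkb-floxed replicate 3.

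Of the atypical IkB genes, Nfkbiz separated the sets as Nfkbia did, and Nfkbid varied most. Nfkbiz (ENSMUSG00000035356, chromosome 16, 55811375 to 55838899, minus strand) encodes IkB-zeta, a nuclear co-factor needed for late inflammatory genes such as Il6 in mouse macrophages. It measured 45.1, 40.6, 42.6 and 22.5 CPM in Irf1-deleted libraries, against 33.0, 33.2, 64.2 and 67.2 CPM in Irf1-floxed libraries. The Ikbkb set measured 113.8, 155.6, 175.2 and 79.4 CPM in deleted libraries, against 123.4, 107.5, 197.7 and 91.7 CPM in floxed libraries. No library of the Irf1 set reached the lowest of the Ikbkb set.

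Nfkbid (ENSMUSG00000036931, chromosome 7, 30421732 to 30428746, plus strand) encodes IkBNS, a nuclear IkB known in mice for roles in B cells and regulatory T cells. Its levels were 14.2, 6.85, 9.33 and 2.67 CPM in Irf1-deleted libraries, against 3.36, 5.76, 5.59 and 25.5 CPM in Irf1-floxed libraries. They were 33.9, 15.8, 21.0 and 15.7 CPM in Ikbkb-deleted libraries, against 19.1, 8.72, 101.8 and 13.6 CPM in Ikbkb-floxed libraries. A single library was far above the rest in both floxed groups, and the deleted groups of both sets did not overlap.

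Bcl3 (ENSMUSG00000053175, chromosome 7, 19808462 to 19822770, minus strand) encodes a nuclear IkB that binds the NF-kB subunits p50 and p52. It measured 51.8, 43.3, 59.2 and 35.7 CPM in Irf1-deleted libraries, against 40.8, 48.3, 45.0 and 49.1 CPM in Irf1-floxed libraries. The Ikbkb-deleted libraries held 30.6, 46.1, 24.1 and 33.4 CPM, against 38.8, 27.5, 81.6 and 48.5 CPM in the Ikbkb-floxed libraries. Bcl3 had the smallest range of the members, 3.38-fold between the lowest and the highest of 16 libraries, and its 4 groups overlapped. Its exons overlap those of the predicted gene Gm16175, which averaged 0.07 CPM.

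Of the feedback genes, Tnfaip3 had the higher means in the Ikbkb set and Tnip1 in the Irf1 set. Tnfaip3 (ENSMUSG00000019850, chromosome 10, 19000910 to 19015657, minus strand) encodes A20, a ubiquitin-editing enzyme that shuts down signalling upstream of IKK. It measured 57.2, 48.7, 58.3 and 39.7 CPM in Irf1-deleted libraries, against 41.0, 74.4, 60.8 and 102.4 CPM in Irf1-floxed libraries. The Ikbkb set measured 190.7, 156.6, 208.1 and 81.5 CPM in deleted libraries, against 198.2, 195.4, 399.5 and 138.8 CPM in floxed libraries. Over all 8 libraries of each set the ranges just overlapped, because Irf1-floxed replicate 4 was above Ikbkb-deleted replicate 4.

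Tnip1 (ENSMUSG00000020400, chromosome 11, 54910785 to 54962917, minus strand) encodes ABIN-1, which binds ubiquitin chains and A20. It had 49.4, 26.0, 25.6 and 19.7 CPM in Irf1-deleted libraries, against 20.7, 39.0, 27.3 and 40.9 CPM in Irf1-floxed libraries. The Ikbkb-deleted libraries had 14.4, 18.3, 14.7 and 25.9 CPM, against 15.3, 16.3, 27.9 and 10.4 CPM in the Ikbkb-floxed libraries. Its lowest values were in the Ikbkb set and its highest in the Irf1 set, the reverse of Tnfaip3, with overlap between all 4 groups.

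**Figure D1:**
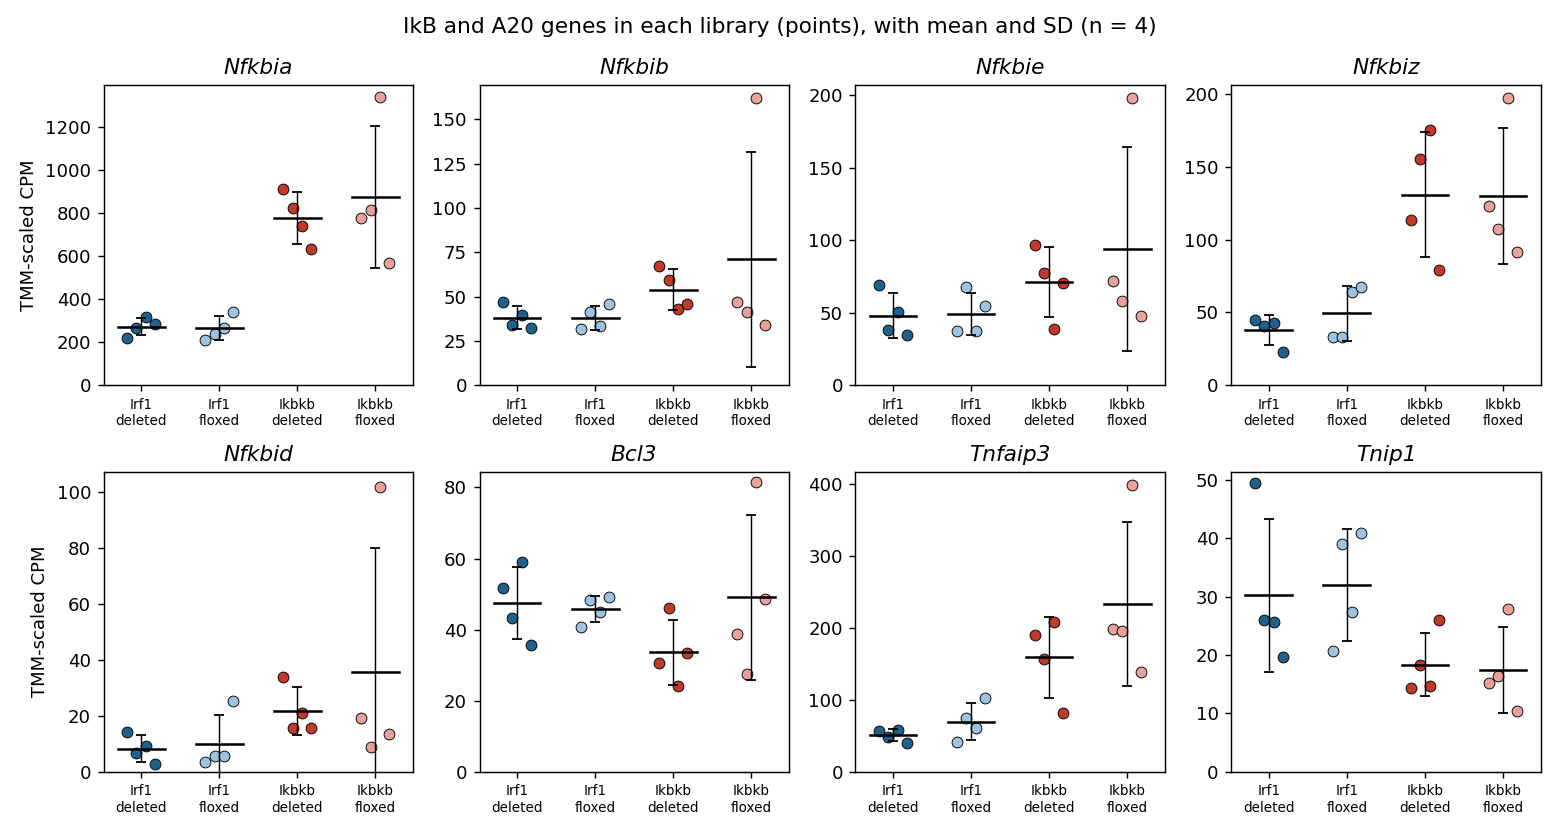
Each panel plots 1 gene, with TMM-scaled CPM on the vertical axis, which starts at 0, and a point for each library of the 4 groups. Horizontal lines are means and bars are SD (n = 4), with bars that would pass below 0 ended at 0. Nfkbia lies at 209.8 to 340 CPM in the Irf1 set and at 565.6 to 1337 CPM in the Ikbkb set, and the highest point in 7 of the 8 panels is Ikbkb-floxed replicate 3.

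Levels can be compared between genes only per length, here as CPM per kilobase of exon. Nfkbia was first in all 4 groups, at 169 ± 24.6 in Irf1-deleted, 163 ± 34.7 in Irf1-floxed, 482 ± 74.2 in Ikbkb-deleted and 542 ± 204 CPM per kilobase in Ikbkb-floxed libraries. Its range did not overlap that of the next member in any group. The other members followed far below, and the ranges of every pair of neighbours in their order overlapped. Members farther apart in the order could be separate, as Nfkbib and Nfkbiz lay wholly above Tnip1 in Ikbkb-deleted libraries and Bcl3 wholly above Nfkbid in Irf1-deleted libraries. In the Irf1 set Bcl3 came second, at a mean of 19.2 in deleted and 18.5 CPM per kilobase in floxed libraries, and Nfkbid came last, at 3.53 in deleted and 4.28 CPM per kilobase in floxed libraries. In the Ikbkb set Nfkbiz was second in deleted libraries, at 26.1 CPM per kilobase, and Nfkbib in floxed libraries, at 32.7 CPM per kilobase. Tnip1 came last there, at 5.18 in deleted and 4.94 CPM per kilobase in floxed libraries.

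Whether the inhibitor genes differ without IKK-beta was asked by setting Ikbkb-deleted against Ikbkb-floxed libraries. No member passed the test. edgeR called 0 of 8 members at an adjusted p under 0.05, with 0 of 8 also at an unadjusted p under 0.05. Over all 16040 genes the percentage called was 0% adjusted and 4.79% unadjusted, and DESeq2 and limma voom also called 0 members. Deleted and floxed libraries overlapped in all 8 members, against 1.7% of all genes without overlap. The median log2 fold change of the members was -0.40, beside -0.02 over all genes, with 6 of 8 members below 0 where 52.2% of all genes were. In bulk RNA, fewer cells of a type and less RNA per cell cannot be told apart, here and in every comparison below. Genes of fibroblasts and macrophages were present in every library, so a change confined to cDC1s could be missed.

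Nfkbia averaged 776 ± 119 CPM in Ikbkb-deleted libraries and 873 ± 328 CPM in floxed libraries (SD, n = 4 each). The fold was 0.889, its 95% interval 0.632 to 1.25, and the edgeR adjusted p was 1. Tnfaip3 averaged 159 ± 56.1 CPM in deleted and 233 ± 114 CPM in floxed libraries, a fold of 0.683 whose interval reached 0.410 and 1.139 (edgeR adjusted p = 1). Bcl3 had the smallest unadjusted p of the members, 0.0766 in edgeR, at 33.6 ± 9.22 CPM in deleted and 49.1 ± 23.3 CPM in floxed libraries (log2 fold change -0.55, SE 0.29). Nfkbid had the widest interval, from 0.196-fold to 1.86-fold, so even a large change of this gene was not detectable at this spread. The log2 fold changes of the others were -0.40 (SE 0.39) for Nfkbib, -0.41 (SE 0.41) for Nfkbie, 0.01 (SE 0.33) for Nfkbiz and 0.07 (SE 0.35) for Tnip1.

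The sign of the differences of Nfkbia, Nfkbib, Nfkbie and Nfkbid rested on Ikbkb-floxed replicate 3. Without it, the log2 fold change was 0.11 for Nfkbia, 0.40 for Nfkbib, 0.25 for Nfkbie and 0.64 for Nfkbid, all above 0. It was -0.16 for Tnfaip3 and -0.20 for Bcl3, closer to 0 than with it, and edgeR again called 0 members. Nfkbiz, at 0.28, and Tnip1, at 0.38, kept their sign without Ikbkb-floxed replicate 3. Nfkbiz turned to -0.18 without Ikbkb-deleted replicate 3, and Tnip1 to -0.15 without Ikbkb-deleted replicate 4. Ikbkb-floxed replicate 3 also had the highest sum of mature dendritic cell genes, 9674 CPM against 1930 to 3087 CPM in the other 3 floxed libraries. Its T and NK cell genes summed to 2002 CPM, against 303 to 533 CPM in the other 3. The part of these cells in the members' levels was not tested.

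Irf1-deleted and Irf1-floxed libraries were set against each other in the same way. No member passed the test here either. edgeR called 0 of 8 members adjusted and 0 of 8 unadjusted, where the percentage of all genes called was 0% adjusted and 2.61% unadjusted, and DESeq2 and limma voom called 0 members. All 8 members overlapped between the groups, against 2.89% of all genes without overlap. The median log2 fold change was -0.06, beside -0.02 over all genes, with 6 of 8 members below 0 where 51.7% of all genes were, although 1 of the 6, Nfkbib, was 0 to 2 decimals, with means of 38.0 CPM in both groups. Nfkbia averaged 271 ± 39.6 CPM in Irf1-deleted and 263 ± 55.8 CPM in Irf1-floxed libraries, a fold of 1.03 whose interval reached 0.733 and 1.45 (edgeR adjusted p = 1). Tnfaip3 averaged 51.0 ± 8.64 CPM in deleted and 69.6 ± 25.8 CPM in floxed libraries, a fold of 0.732 with an interval of 0.439 to 1.22. Nfkbiz averaged 37.7 ± 10.3 CPM in deleted and 49.4 ± 18.9 CPM in floxed libraries (log2 fold change -0.39, SE 0.33). The log2 fold changes of Nfkbib, Nfkbie, Bcl3 and Tnip1 all lay between -0.08 and 0.05. Nfkbid stood at -0.28 (SE 0.76) with Irf1-floxed replicate 4 and at 0.75 without it.

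The difference between the deletions was tested as an interaction, as the Irf1 change minus the Ikbkb change. edgeR called 0 of 8 members, with 0 at an unadjusted p under 0.05, where 0% of all genes were called adjusted and 2.84% unadjusted, and DESeq2 and limma voom called 0 members. Of the members 2 of 8 lay below 0, where 46.5% of all genes did. Bcl3 differed by 0.60 on the log2 scale (SE 0.41, edgeR adjusted p = 1), and by 0.25 without Ikbkb-floxed replicate 3. Nfkbiz differed by -0.40 and Nfkbid by 0.45, and without that library Nfkbiz differed by -0.67 and Nfkbid by -0.91. For Nfkbia the change differed 1.16-fold, with a 95% interval of 0.715 to 1.88. Intervals of this width do not show that both deletions act alike on these genes.

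The sets themselves were compared next, at first among deleted libraries, Irf1 deleted minus Ikbkb deleted. Nfkbia, Nfkbiz and Tnfaip3 were lower in the Irf1 set. These were 3 of 8 members called by edgeR, where 8.58% of all genes were called and 3.54% were called lower. The same 3 were the members at an unadjusted p under 0.05, as were 25.4% of all genes, and 6 of 8 members lay below 0, where 49.5% of all genes did. Nfkbia averaged 271 ± 39.6 CPM in Irf1-deleted and 776 ± 119 CPM in Ikbkb-deleted libraries (difference of -1.52 on the log2 scale, SE 0.24, edgeR adjusted p = 0.00795). The fold was 0.350, with an interval of 0.247 to 0.496. Nfkbiz averaged 37.7 ± 10.3 CPM in Irf1-deleted and 131 ± 42.9 CPM in Ikbkb-deleted libraries (-1.80, SE 0.34, edgeR adjusted p = 0.0112). Tnfaip3 averaged 51.0 ± 8.64 CPM in Irf1-deleted and 159 ± 56.1 CPM in Ikbkb-deleted libraries (-1.64, SE 0.35, edgeR adjusted p = 0.0156). Without Irf1-deleted replicate 3 the adjusted p of Tnfaip3 was 0.0586. In 4 of 8 members, the 3 called and Nfkbid, the groups did not overlap, as in 17.9% of all genes.

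Among floxed libraries, Irf1 floxed minus Ikbkb floxed, Nfkbia, Nfkbiz and Tnfaip3 were again the 3 of 8 members called, all lower in the Irf1 set, where 12.6% of all genes were called and 5.84% were called lower. At an unadjusted p under 0.05 there were 7 of 8 members, against 28.3% of all genes, and 7 of 8 lay below 0, where 50.2% of all genes did. This comparison shares no library with that of the deleted libraries, although all 4 groups share a single estimate of the spread. Nfkbia averaged 263 ± 55.8 CPM in Irf1-floxed and 873 ± 328 CPM in Ikbkb-floxed libraries (difference of -1.73 on the log2 scale, SE 0.24, edgeR adjusted p = 0.00391). Tnfaip3 averaged 69.6 ± 25.8 CPM in Irf1-floxed and 233 ± 114 CPM in Ikbkb-floxed libraries (-1.74, SE 0.36, edgeR adjusted p = 0.00884). Nfkbiz averaged 49.4 ± 18.9 CPM in Irf1-floxed and 130.1 ± 46.9 CPM in Ikbkb-floxed libraries (-1.40, SE 0.34, edgeR adjusted p = 0.0166). These 3 were also the members whose groups did not overlap, as in 17.5% of all genes. The adjusted p of Nfkbiz was 0.0507 without Irf1-floxed replicate 1 and 0.0580 without Irf1-floxed replicate 2. Without Ikbkb-floxed replicate 3 all 3 calls held, at -1.45 for Nfkbia, -1.35 for Tnfaip3 and -1.12 for Nfkbiz.

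The other 5 members did not pass the threshold in either comparison of the sets. Among floxed libraries Nfkbib differed by -0.90 (SE 0.39, edgeR adjusted p = 0.144) and Nfkbie by -0.94 (SE 0.42, edgeR adjusted p = 0.151). Without Ikbkb-floxed replicate 3 Nfkbib stood at -0.10 and Nfkbie at -0.27. Nfkbid differed by -1.83 (SE 0.78, edgeR adjusted p = 0.136), by -0.46 without Ikbkb-floxed replicate 3, and by -2.87 without Irf1-floxed replicate 4, when it was called (edgeR adjusted p = 0.0301). Bcl3 differed by -0.10 (SE 0.29, edgeR adjusted p = 0.861), and by 0.26 without Ikbkb-floxed replicate 3. Tnip1 was the member with a positive difference, 0.87 (SE 0.35, edgeR adjusted p = 0.118), and was called at 1.19 without Ikbkb-floxed replicate 3 (edgeR adjusted p = 0.0424). Among deleted libraries the differences were -0.50 (SE 0.39) for Nfkbib, -0.56 (SE 0.41) for Nfkbie, -1.39 (SE 0.78) for Nfkbid, 0.50 (SE 0.29) for Bcl3 and 0.72 (SE 0.35) for Tnip1. The member medians were -0.98 among deleted and -1.17 among floxed libraries, beside 0.01 over all genes among deleted and -0.01 among floxed libraries.

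**Figure D2:**
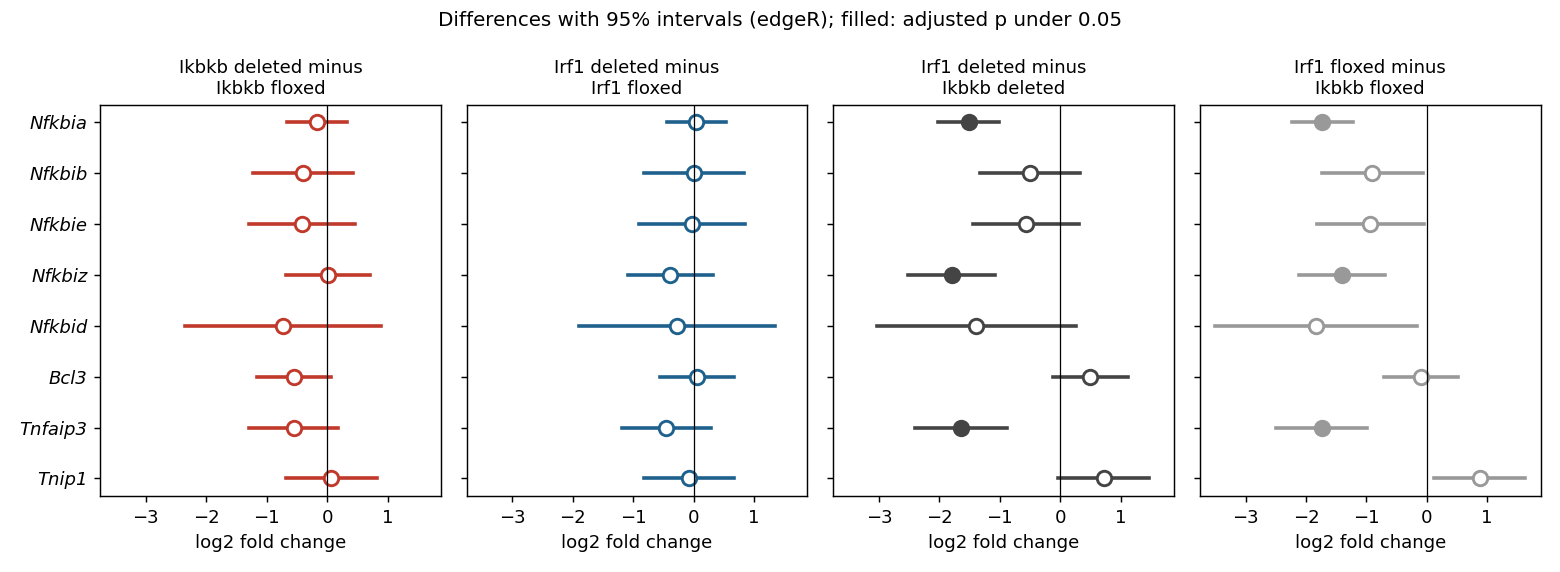
The horizontal axis is the log2 fold change from edgeR, points are estimates, lines are 95% intervals, and filled points have an adjusted p under 0.05. Each panel is 1 comparison named above it. No member is filled in either deletion, while Nfkbia, Nfkbiz and Tnfaip3 are filled in both comparisons of the sets, between -1.80 and -1.40.

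Over all 8 libraries of each set, Nfkbia and Nfkbiz did not overlap between the sets, as in 4.61% of all genes. Nfkbia ran from 209.8 to 340 CPM in the Irf1 set and from 565.6 to 1337 CPM in the Ikbkb set. Nfkbiz ran from 22.5 to 67.2 CPM in the Irf1 set and from 79.4 to 197.7 CPM in the Ikbkb set. The sets differ in targeted gene, and the labels do not say whether they were also collected or prepared apart, so the genotype and any difference of batch or handling cannot be told apart.

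Other measures moved with the 3 members between the sets. Of 15 immediate-early and heat-shock genes, which tissue digestion is known to induce, 7 were called lower in the Irf1 set among deleted libraries. Of all genes 3.54% were called lower there. Among floxed libraries 10 were called lower, as were 5.84% of all genes. The medians were -0.90 among deleted and -1.04 among floxed libraries, with 2 genes above 0 among deleted and 4 among floxed libraries. Heat-shock genes did not all follow among floxed libraries. Hspa1a averaged 61.0 ± 22.9 CPM in Irf1-floxed and 60.5 ± 35.8 CPM in Ikbkb-floxed libraries. Hspa1b averaged 149 ± 55.3 CPM in Irf1-floxed and 118 ± 62.8 CPM in Ikbkb-floxed libraries. Dnajb1 was lower, at 142 ± 14.5 CPM in Irf1-floxed and 292 ± 62.7 CPM in Ikbkb-floxed libraries. In Irf1-deleted libraries Hspa1a averaged 31.6 ± 22.0, Hspa1b 69.1 ± 37.5 and Dnajb1 108 ± 17.3 CPM. In Ikbkb-deleted libraries Hspa1a averaged 49.6 ± 18.5, Hspa1b 96.7 ± 46.7 and Dnajb1 291 ± 57.2 CPM. Hspb1 went the other way, at 1.44 ± 0.732 CPM in Irf1-deleted and 0.518 ± 0.344 CPM in Ikbkb-deleted libraries. The early gene Nr4a1 averaged 34.2 ± 19.4 CPM in Irf1-deleted and 398 ± 175 CPM in Ikbkb-deleted libraries, and 50.7 ± 36.0 CPM in Irf1-floxed and 489.9 ± 432 CPM in Ikbkb-floxed libraries. Atf3 averaged 33.4 ± 13.7 CPM in Irf1-deleted and 199.8 ± 113 CPM in Ikbkb-deleted libraries, while Jun averaged 896 ± 199 CPM in Irf1-deleted and 854 ± 101 CPM in Ikbkb-deleted libraries. The summed level of the 15 genes ran from 3062 to 4566 CPM in Irf1-deleted and 5235 to 8456 CPM in Ikbkb-deleted libraries. It ran from 3791 to 6022 CPM in Irf1-floxed and 5541 to 14924 CPM in Ikbkb-floxed libraries. The part of digestion or handling in the members' levels was not tested.

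Fibroblast and endothelial genes were higher in the Irf1 set, in 7 of 12 genes called among deleted and 8 of 12 among floxed libraries. Of all genes, 8.58% were called in either direction among deleted and 12.6% among floxed libraries. Their sum ran from 13371 to 20778 CPM in Irf1-deleted and 6357 to 12132 CPM in Ikbkb-deleted libraries, and from 11578 to 31393 CPM in Irf1-floxed and 9308 to 9633 CPM in Ikbkb-floxed libraries. Mature dendritic cell genes had medians of -1.140 among deleted and -1.45 among floxed libraries, with 0 of 14 tested genes called among deleted and 2 called lower among floxed libraries. Their sum ran from 837 to 2267 CPM in Irf1-deleted and 1778 to 5320 CPM in Ikbkb-deleted libraries, and from 946 to 1947 CPM in Irf1-floxed and 1930 to 9674 CPM in Ikbkb-floxed libraries. All 17 T and NK cell genes were below 0 in both comparisons, with medians of -1.38 among deleted and -1.37 among floxed libraries, and 0 were called. Genes of cDC1 identity had medians of -0.81 among deleted and -1.06 among floxed libraries, with 0 of 15 called in each. Of 15 macrophage and monocyte genes, 0 were called among deleted libraries. Among floxed libraries 1 was called higher in the Irf1 set, where 6 lay above 0 and 9 below. Neutrophil genes summed to between 395.5 and 956 CPM in Irf1-deleted and between 223 and 340 CPM in Ikbkb-deleted libraries. Their sum was 509 to 961 CPM in Irf1-floxed and 235 to 376 CPM in Ikbkb-floxed libraries. This sum did not overlap between the sets, and 1 of 7 tested genes was called higher in each comparison. Most of the sum was Mmp9, averaging 593 CPM in Irf1-deleted, 207 CPM in Ikbkb-deleted, 674 CPM in Irf1-floxed and 218 CPM in Ikbkb-floxed libraries. S100a8 and S100a9 had medians of 1.16 and 1.48 CPM over all libraries. Il1r2 went the other way, at 16.4 ± 3.08 CPM in Irf1-deleted and 38.4 ± 30.5 CPM in Ikbkb-deleted libraries. B cell genes had a median of -0.27 among deleted libraries, with 0 of 6 tested genes called, and of -2.51 among floxed libraries, with all 6 below 0 and 1 called lower. Of 8 plasmacytoid dendritic cell genes 1 was called higher in each comparison, and 0 of 9 cDC2 genes and 0 of 3 tested melanoma genes were called in either. The tested melanoma genes had medians over all libraries of 0.138 CPM for Pmel, 0.0679 CPM for Sox10 and 6.42 CPM for Mitf. Mlana, Tyr, Dct, Tyrp1 and Slc45a2 were each at 0 CPM in 15 libraries, so this list cannot gauge the RNA of tumour cells. The part of each cell type in the lower levels of Nfkbia, Nfkbiz and Tnfaip3 was not tested.

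Other genes of the NF-kB pathway, 50 in all, were called in both directions between the sets. Among deleted libraries edgeR called 2 higher and 2 lower in the Irf1 set, and among floxed libraries 2 higher and 4 lower, with medians of -0.19 among deleted and -0.32 among floxed libraries, where 8.58% and 12.6% of all genes were called. The dendritic cell activation gene Cd83 fell to 106.6 ± 68.1 CPM in Irf1-deleted libraries, against 978 ± 854 CPM in Ikbkb-deleted libraries (log2 fold change -3.20, edgeR adjusted p = 0.0249), and was -3.04 among floxed libraries (edgeR adjusted p = 0.0228). The cytokine gene Il1b was lower by -3.41 on the log2 scale among deleted libraries (edgeR adjusted p = 0.0256) and -2.89 among floxed libraries (edgeR adjusted p = 0.0345). Gadd45b, at -1.52, and the early gene Junb, at -1.19 and also in the digestion list, were called among floxed libraries. Tab1, an adaptor of the kinase TAK1 upstream of IKK, was higher in the Irf1 set, by 1.66 among deleted (edgeR adjusted p = 0.0121) and 1.17 among floxed libraries (edgeR adjusted p = 0.0286). Nfkbil1 was higher among deleted libraries, at 1.36 (edgeR adjusted p = 0.0487). Ankrd42 was higher among floxed libraries, at 4.10 from a mean of 0.195 CPM in Ikbkb-floxed libraries (edgeR adjusted p = 0.0230).

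In each deletion 0 of the 50 pathway genes were called. For Ikbkb deletion 38 were below 0, where 52.2% of all genes were, with a median of -0.26. The pathway genes summed to 13742 CPM in Ikbkb-floxed replicate 3, against 3851 to 4707 CPM in the rest of its group. Their sum ran from 3854 to 8962 CPM in Ikbkb-deleted libraries. Those with the smallest p beside Ikbkb itself included the caspase-8 regulator Cflar at -0.85 (SE 0.36) and the kinase gene Ripk1 at -0.40 (SE 0.21). Ankrd42 had the smallest, at 3.93 (edgeR adjusted p = 0.945). For Irf1 deletion 35 were below 0, where 51.7% of all genes were, with a median of -0.16. Rnf31, which encodes a subunit of the linear ubiquitin ligase, had the smallest p, at -0.79 (SE 0.51). Ier3 at -0.46, Tab2 at -0.44 and Map3k14 at -0.71 followed. For the difference between the deletions 29 were above 0 and 21 below, where 46.5% of all genes were below, with a median of 0.07 and 0 called. The smallest p there was that of Ankrd42, at -4.29 (SE 1.37, edgeR adjusted p = 1). Its low mean of 0.195 CPM in Ikbkb-floxed libraries stood against 2.63 CPM in Irf1-deleted, 3.38 CPM in Irf1-floxed and 3.01 CPM in Ikbkb-deleted libraries. Nfkbil1 at 0.83, Nfkb2 at 0.66 and Cflar at 0.59 followed.

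The members varied between replicates to unequal degrees. The within-group SD of log2 CPM was 0.33 for Nfkbia, higher than in 33.0% of the 9641 genes whose mean log2 CPM reached 3, where the median was 0.41. It was 1.143 for Nfkbid, higher than in 97.2% of them. The others lay between 0.42 for Bcl3 and 0.62 for Nfkbie. Between the lowest and the highest of the 16 libraries, Nfkbid spanned 38.2-fold, Tnfaip3 10.1-fold, Nfkbiz 8.79-fold and Nfkbia 6.37-fold, against a median of 3.30-fold over those genes.

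With group means removed, all 28 pairs of members were positively correlated over the 16 libraries, with Pearson r between 0.318 and 0.92 and a median of 0.646. The closest pair was Nfkbib with Nfkbie and the most distant Nfkbie with Nfkbiz. These are descriptions, since all pairs share the same libraries and 1 of them holds the highest value of 7 members. Tnfaip3 lay close to Nfkbia, Nfkbid and Nfkbiz, while Bcl3 and Tnip1 were less close to these.

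**Figure D3:**
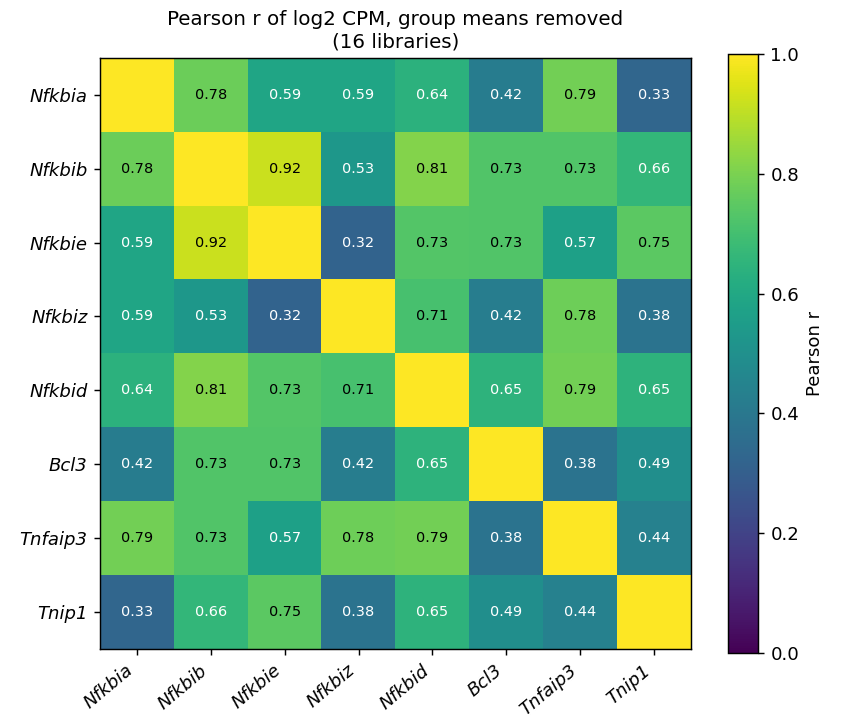
The matrix shows, for each pair of members, Pearson r of log2 CPM over 16 libraries after each group mean was subtracted, with colour from 0 to 1. All 28 pairs are positive, and Nfkbib and Nfkbie form the brightest square outside the diagonal, at 0.92.

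By the same measure, the genes most like each member were named among 9474 genes. They were Ltb4r1 (r = 0.904), Pmaip1 (0.879) and Nfil3 (0.872) for Nfkbia, and Peli1 (0.96), Nfkb2 (0.952) and Tppp3 (0.952) for Nfkbib. For Nfkbie they were Ezr (0.969), Tapbp (0.962) and Nfkb2 (0.946). The genes most like Nfkbiz were Zfp592 (0.842), Zfp160 (0.832) and Zfp281 (0.819), and those most like Nfkbid were Ripk3 (0.95), Rcsd1 (0.947) and Runx3 (0.935). Bcl3 was nearest to Prr14 (0.943), Batf2 (0.904) and Klf13 (0.87). Tnfaip3 was nearest to Apobr (0.918), Irak4 (0.916) and Dennd4a (0.904), and Tnip1 to Parp2 (0.904), Alms1 (0.882) and Fgr (0.875). Nfkb2 was among the nearest genes of both Nfkbib and Nfkbie. Each named gene was picked for its large r among 9474 genes, with Ikbkb-floxed replicate 3 included. These r are descriptions, and shared regulation was not tested.

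The members were also set against the summed level of mature dendritic cell genes, within each set of 8 libraries because the sets form separate clusters. There were 96 such relations over 8 members, 6 marker lists and both sets, and p-values are exact two-sided permutation values adjusted over all 96. Nfkbie was positively correlated with the sum in both sets. Pearson r was 0.902 in the Irf1 set (exact p = 0.00327, adjusted 0.0393), with a Spearman rho of 0.786 (exact p = 0.0279, adjusted 0.192). In the Ikbkb set r was 0.919 (exact p = 0.00166, adjusted 0.0276) and rho was 0.833 (exact p = 0.0154, adjusted 0.161). Without the 2 libraries farthest from the median of the sum, r was 0.894 in the Irf1 set and 0.604 in the Ikbkb set. Nfkbib also passed in the Ikbkb set, with an r of 0.934 (exact p = 0.00201, adjusted 0.0276), a rho of 0.762 (exact p = 0.0368, adjusted 0.208) and an r of 0.627 without the 2 farthest libraries. For Nfkbie and Nfkbib the rank correlations missed the threshold after adjustment, and the mature list shares Relb, Cd40 and Ccl22 with the pathway list.

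For Nfkbia, r with the same sum was -0.174 in the Irf1 set (exact p = 0.670, adjusted 0.748), with a rho of -0.167 (exact p = 0.703, adjusted 0.776), and r was 0.0923 without the 2 farthest libraries. In the Ikbkb set r was 0.907 (exact p = 0.00112, adjusted 0.0276) and rho was 0.857 (exact p = 0.0107, adjusted 0.161), but r was 0.629 without the 2 farthest libraries, one of them Ikbkb-floxed replicate 3. With the digestion genes, Nfkbia had an r of 0.412 in the Irf1 set (exact p = 0.311, adjusted 0.462) and 0.777 in the Ikbkb set (exact p = 0.0335, adjusted 0.129). The rho was 0.405 in the Irf1 set (exact p = 0.327, adjusted 0.541) and 0.762 in the Ikbkb set (exact p = 0.0368, adjusted 0.208), and without the 2 farthest libraries r was 0.269 in the Irf1 set and 0.398 in the Ikbkb set. All 8 members had a positive r with the digestion genes in both sets, with a median of 0.524 in the Irf1 set and 0.692 in the Ikbkb set, but 0 passed the adjusted threshold by Pearson or Spearman. Without the 2 farthest libraries r was negative for 5 members in the Irf1 set and 3 in the Ikbkb set.

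Other marker sums passed with some members by Pearson, and 0 of the 96 relations passed by Spearman. With the T and NK cell sum in the Irf1 set, Tnfaip3 had an r of 0.910 (exact p = 0.00186, adjusted 0.0276), a rho of 0.810 (exact p = 0.0218, adjusted 0.161) and an r of 0.623 without the 2 farthest libraries. Nfkbib had an r of 0.866 there (exact p = 0.00166, adjusted 0.0276), a rho of 0.929 (exact p = 0.00223, adjusted 0.107) and an r of 0.922 without them. In the Ikbkb set Bcl3 had an r of 0.906 with that sum (exact p = 0.00456, adjusted 0.0487), a rho of 0.690 (exact p = 0.0694, adjusted 0.266) and an r of 0.634 without the 2 farthest libraries. With the cDC1 identity sum in the Ikbkb set, Nfkbia had an r of 0.853 (exact p = 0.00122, adjusted 0.0276), a rho of 0.833 (exact p = 0.0154, adjusted 0.161) and an r of 0.780 without them. Nfkbib had an r of 0.866 with that sum (exact p = 0.000372, adjusted 0.0276), a rho of 0.952 (exact p = 0.00114, adjusted 0.107) and an r of 0.932 without them. The Irf1 set went the other way for Nfkbia, with an r of -0.262 (exact p = 0.523, adjusted 0.618), and -0.518 without the 2 farthest libraries. For Nfkbib it gave an r of 0.632 (exact p = 0.104, adjusted 0.270), and 0.586 without them.

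**Figure D4:**
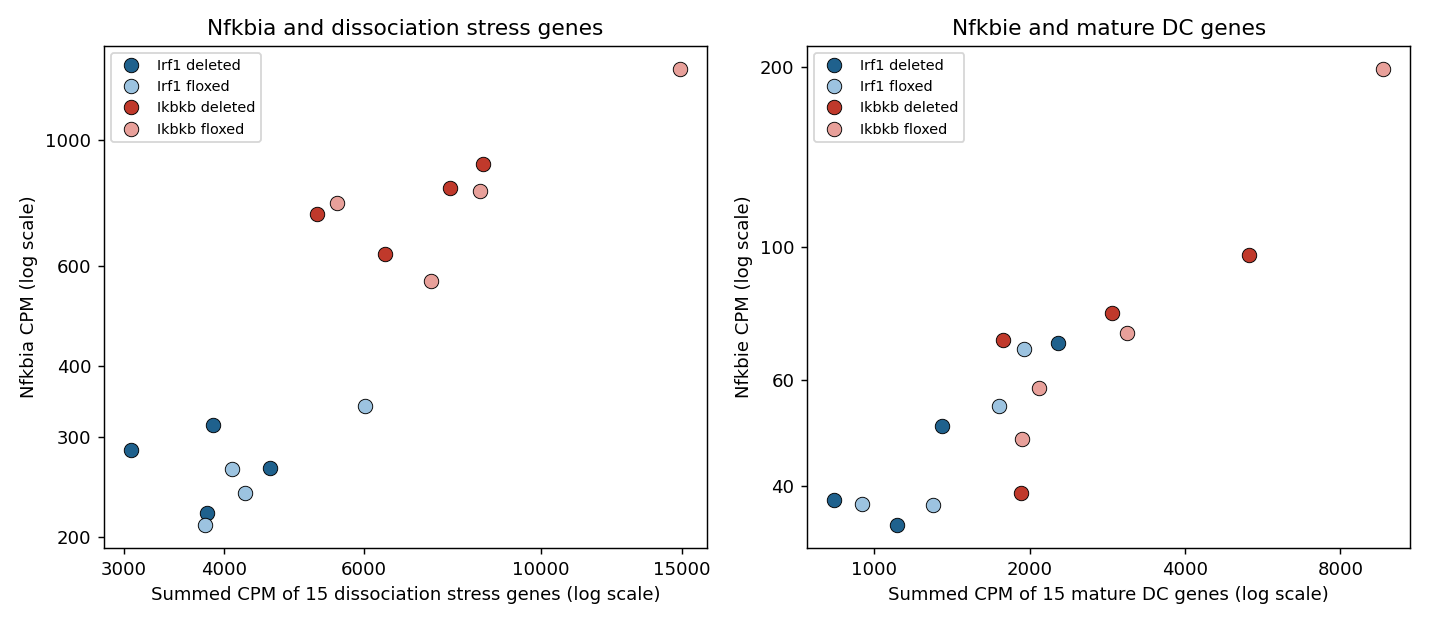
Each point is a library, coloured by group, with log axes in CPM. On the left, Nfkbia is plotted against the summed level of 15 digestion genes, and the sets form separate clouds, with the Irf1 set at 209.8 to 340 CPM of Nfkbia and the Ikbkb set at 565.6 to 1337 CPM. On the right, Nfkbie is plotted against the summed level of 15 mature dendritic cell genes, and the 4 groups lie along a common band that ends in Ikbkb-floxed replicate 3, at 198.5 CPM of Nfkbie.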

How the data were processed

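A single table of raw counts, which gives the reads assigned to each Ensembl gene in 16 libraries and is not normalized, was deposited by the authors. Per the submitters' processing notes, reads were handled with STAR 2.5.3a, HTSeq 0.6.1p1, cutadapt 1.10 and bcl2fastq 2.17.1.14 on mm10. Annotation release and strand setting are not given in the sources used here. Symbols and coordinates came from GENCODE M21 and promoters from RefSeq. Genes were filtered with filterByExpr (minimum count 10, total 15), scaled by TMM and fitted in R 4.3.3 with edgeR 4.0.16 (quasi-likelihood, 4 group means, Benjamini-Hochberg over 16040 genes). Log2 CPM used a prior count of 2. The scripts were tested on simulated data. Alternatives were RLE and upper-quartile scaling, no filter or 5 CPM in 4 libraries, DESeq2 1.42.0, limma 3.58.1 voom with quality weights, a robust fit, only the groups compared, and leaving out each library. Members and gene lists were chosen with earlier results of these data known. Named beside the members were both targeted genes, the 3 genes most like each member, and called pathway genes, or the 4 with the smallest p. PCR reads carry no molecular identifiers here, so counts are not independent molecules. No pair of replicates agreed within sampling noise (lowest chi-square per gene 44.9).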

Additional observations from a re-analysis of the deposited data

Results flagged for a closer look

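In 11 of 64 groups of 4 values checked, 1 library lay farther from the others than Dixon's 95% critical value allows. Chance gives this in about 1 of 20 groups of normal values. The CPM were not logged and the groups share libraries, so the count of 11 is not a test against chance. Ikbkb-floxed replicate 3 gave 7 of the 11. It held 161.9 CPM of Nfkbib (34.1 to 46.8 CPM in the other 3 libraries), 198.5 CPM of Nfkbie (47.8 to 71.8 CPM) and 101.8 CPM of Nfkbid (8.72 to 19.1 CPM). It also held 120.8 CPM of Ikbkb (44.5 to 48.6 CPM), 9937 CPM of cDC1 identity genes (1281 to 2376 CPM), 9674 CPM of mature dendritic cell genes (1930 to 3087 CPM) and 2002 CPM of T and NK cell genes (303 to 533 CPM). Nfkbid was 25.5 CPM in Irf1-floxed replicate 4, against 3.36 to 5.76 CPM in the other 3. The cDC1 identity sum was 10065 CPM in Ikbkb-deleted replicate 1, against 1709 to 3074 CPM in the other 3. T and NK cell genes summed to 619 CPM in Ikbkb-deleted replicate 2, against 254 to 299 CPM in the other 3, and to 244.6 CPM in Irf1-deleted replicate 1, against 95.4 to 118 CPM in the other 3.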

How the results depend on the processing

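No paired analysis was possible because replicate numbers follow the order of the record and pair no libraries. Nfkbia, Nfkbiz and Tnfaip3 were called in both comparisons of the sets under every setting other than leaving out single libraries, and 0 members were called in either deletion under any setting. Counts of genes called among floxed libraries of both sets were 1199 without a filter, 3289 in DESeq2, 4130 in voom and 1069 with only those libraries, and among deleted libraries of both sets 718 without a filter, 2624 in DESeq2 and 2990 in voom. DESeq2 called 55 genes for Ikbkb deletion, 13 for Irf1 deletion and 14 for their difference. Leaving out 1 library at a time gave 782 (without Irf1-floxed replicate 3) to 2404 genes among floxed libraries, 110 (without Irf1-deleted replicate 3) to 1573 among deleted libraries, and 0 to 1 for Ikbkb deletion and for the difference. The members called were then 2 to 4 among floxed and 2 to 3 among deleted libraries. Members with log2 fold changes near 0 turned sign. For Ikbkb deletion, Nfkbiz was -0.0015 with RLE scaling and -0.0058 in DESeq2, and voom gave 0.020 for Nfkbia, 0.21 for Nfkbib, 0.073 for Nfkbie and 0.27 for Nfkbid. For Irf1 deletion, Nfkbib was 0.0078 without a filter, and voom gave 0.12 for Nfkbib, 0.092 for Nfkbie, 0.64 for Nfkbid and 0.089 for Tnip1. In voom the difference for Nfkbib was -0.092 and Bcl3 among floxed libraries was 0.18. The following setting was chosen after seeing the data. Without Ikbkb-floxed replicate 3 and Ikbkb-deleted replicate 1, the 2 libraries with most cDC1 RNA, Ikbkb deletion gave 0.029 for Nfkbia, 0.28 for Nfkbib, 0.067 for Nfkbie and 0.35 for Nfkbid. The difference gave -0.27 for Nfkbib, -0.10 for Nfkbie, -0.61 for Nfkbid and -0.20 for Tnfaip3, and Bcl3 among floxed libraries was 0.26. Leaving out 1 library at a time, Ikbkb deletion ranged from -0.34 to 0.11 for Nfkbia, -0.64 to 0.40 for Nfkbib, -0.64 to 0.25 for Nfkbie, -0.18 to 0.28 for Nfkbiz, -1.07 to 0.64 for Nfkbid and -0.15 to 0.38 for Tnip1. Irf1 deletion ranged from -0.047 to 0.19 for Nfkbia, -0.11 to 0.10 for Nfkbib, -0.26 to 0.16 for Nfkbie, -0.67 to 0.75 for Nfkbid, -0.070 to 0.17 for Bcl3 and -0.43 to 0.076 for Tnip1. The difference ranged from -0.061 to 0.38 for Nfkbia, -0.39 to 0.64 for Nfkbib, -0.28 to 0.61 for Nfkbie, -0.91 to 1.48 for Nfkbid, -0.29 to 0.34 for Tnfaip3 and -0.50 to 0.077 for Tnip1, and Bcl3 among floxed libraries from -0.30 to 0.26. Without the 2 libraries farthest from the median of the mature dendritic cell sum, r turned to 0.0923 for Nfkbia in the Irf1 set and -0.0465 for Tnip1 in the Ikbkb set. With the same omission for the other sums, r with T and NK cell genes was -0.0525 for Nfkbia in the Irf1 set, and in the Ikbkb set -0.518 for Nfkbia, -0.661 for Nfkbib, -0.440 for Nfkbie, -0.177 for Nfkbiz, -0.380 for Nfkbid and -0.811 for Tnip1. With digestion genes it was -0.221 for Nfkbib, -0.209 for Nfkbie, -0.126 for Nfkbid, -0.323 for Bcl3 and -0.0397 for Tnip1 in the Irf1 set, and -0.0477 for Nfkbid, -0.306 for Bcl3 and -0.230 for Tnip1 in the Ikbkb set. With cDC1 identity genes it was 0.150 for Nfkbiz in the Irf1 set. The cause of these shifts was not tested. Scaling alternatives moved the median of all genes by less than 0.1 on the log2 scale.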
